A study of Rattus norvegicus with 9 samples.

Results

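The 9 genes described here belong to the distal convoluted tubule and its WNK kinase pathway: Slc12a3, Wnk1, Wnk4, Stk39, Klhl3, Pvalb, Calb1, Trpm6 and Trpv5. They were chosen by Ensembl identifier, and all 9 identifiers were present among the 17862 features with a value. All 9 passed the limit of a mean of 1 FPKM over the samples, as did 12187 features in all. FPKM here means reads or fragments per kilobase of feature, divided by a scaling total for each library. RNA was sequenced after ribosomal RNA depletion from the renal tissue of animals with hypertension and the Chinese herbal preparation Qingda granule (QDG), of animals with hypertension alone (Model) and of normal animals (WT), with 3 samples in each group and an age of 6 weeks in all. The sources used here give neither the strain, nor how hypertension arose, nor a granule dose, nor whether each sample is its own animal. P-values thus reflect the spread among these samples alone, which may be technical, and an effect of hypertension and any other difference between the groups cannot be told apart. By its label the organism is the brown rat, while the identifiers carry the Ensembl mouse prefix, and the deposited values stand beside identifiers alone, so the gene names used here are those listed with the 9 identifiers when the set was put together.

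The distal convoluted tubule is the short stretch of the nephron after the macula densa that reabsorbs sodium chloride through the thiazide-sensitive cotransporter NCC, the product of Slc12a3, and fine-tunes the excretion of magnesium and calcium. The kinases Wnk1 and Wnk4 phosphorylate and activate the kinase SPAK, the product of Stk39, which in turn phosphorylates NCC and raises salt uptake, and Klhl3 is the adaptor through which a cullin ubiquitin ligase marks WNK kinases for degradation. In humans, mutations of WNK1, WNK4 or KLHL3 cause a familial hypertension with high potassium, and loss of SLC12A3 causes the salt-wasting Gitelman syndrome. Trpm6 is the apical magnesium channel of this segment and Trpv5 the apical calcium channel of its late part and of the connecting tubule, where Calb1 encodes the cytosolic calcium shuttle calbindin, while Pvalb encodes parvalbumin, a calcium buffer of the early part.

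All 9 genes had reads in every library, as had each of the 17862 features, because no deposited value was 0. The scaling totals of the 9 libraries ranged over 26.2 M to 31.4 M. Whole reads recovered from the steps of the values put between 26.8 M and 29.4 M in the listed features. The least covered gene, Trpv5, had 183 to 664 recovered reads per library, Trpm6 had 202 to 688 and Pvalb 195 to 907, while Slc12a3 had 7572 to 26700. The reads in listed features were 90.0% of the scaling total in WT 3 and 107% in Model 3, with the other libraries between. They were also above it in WT 1 (104%), WT 2 (102%) and Model 1 (102%). The scaling total was thus not a count of the reads in listed features, and what it counts cannot be told from the values. The relative scale of a library differs somewhat between FPKM and total reads. In bulk tissue, fewer cells of a type and less RNA per cell cannot be told apart. Markers of other nephron segments and of other cell types, and a list of further genes of the pathway, could not be looked up, because 0 of the identifiers were paired with a symbol in the tables at hand.

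Among the 9 libraries, Model 2 stood apart from the others of its group for most of these genes. Model 2 was the lowest of the 9 libraries for 4 of the 9 genes, namely Slc12a3, Wnk1, Klhl3 and Trpm6. For Slc12a3 and Klhl3 it was close to WT 1 (25.7 against 26.0 FPKM and 4.87 against 4.88 FPKM). WT 1 was the lowest for Calb1 and Trpv5, and the highest for Stk39. Within Model, Calb1 stood at 41.7 FPKM in Model 2 against 92.7 and 130 FPKM in the other libraries, and Pvalb at 9.51 against 20.2 and 32.5 FPKM. QDG 3 was the highest of the 9 libraries for 6 of the 9 genes. Values without Model 2, and for some genes without QDG 3, are therefore given beside those that these libraries moved. Both libraries were picked out by their values for these same genes, not by a measure of library quality. P-values without them show how far a result rests on 1 library and add no support for a difference.

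**Figure D1:**
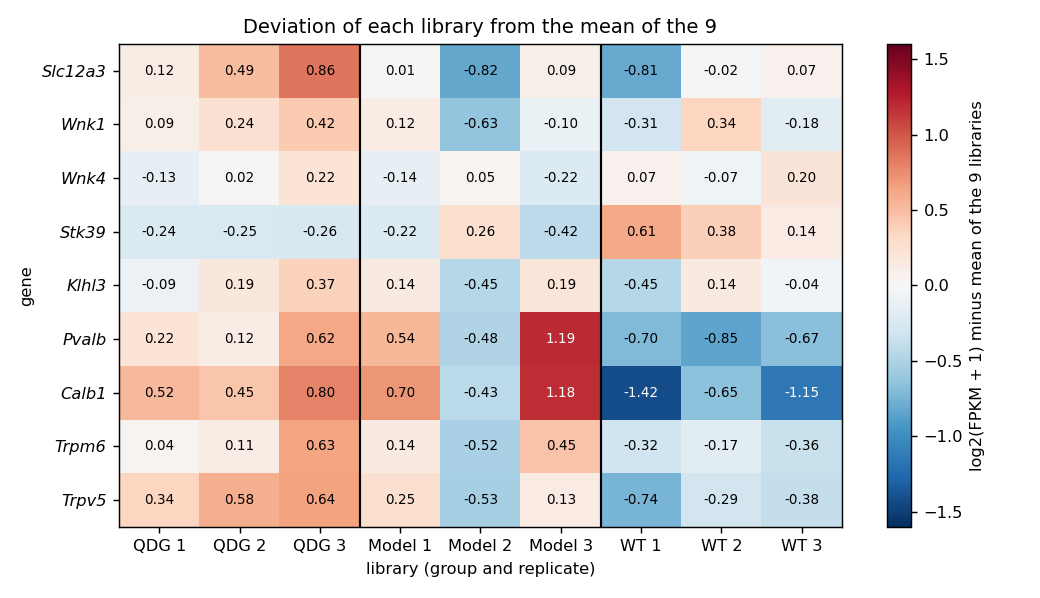
Heat map of log2(FPKM + 1) of each gene (rows) in each library (columns, grouped as QDG, Model and WT), minus the mean of the 9 libraries. Calb1 ranged between −1.42 in WT 1 and 1.18 in Model 3, and Model 2 was below the mean for 7 of the 9 genes.

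The calcium-handling genes and the cotransporter carry the results below, and the promoters of 3 of these genes are shown as the regulatory sequence in front of them. The rat RefSeq promoter table (GRCr8) held 8 of the 9 genes by symbol, all except Calb1. Each line is the 250 bases before the annotated transcript start, written 5′ to 3′ on the gene's strand, which is the minus strand for all 3. Slc12a3 lies at chr19:10675051-10675300, Trpv5 at chr4:71529383-71529632 and Pvalb at chr7:111666290-111666539. Capitals mark matches to any of 4 short motifs on either strand, which were TATAAA (the TATA box), TGTTCT (a half-site of steroid hormone receptors), AGGTCA (a half-site of other nuclear receptors) and CACGTG (an E-box).
Slc12a3: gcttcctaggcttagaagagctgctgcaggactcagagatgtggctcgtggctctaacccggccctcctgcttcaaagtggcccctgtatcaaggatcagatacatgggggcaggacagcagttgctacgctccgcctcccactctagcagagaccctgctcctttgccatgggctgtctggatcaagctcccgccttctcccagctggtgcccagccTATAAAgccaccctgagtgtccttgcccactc
Trpv5: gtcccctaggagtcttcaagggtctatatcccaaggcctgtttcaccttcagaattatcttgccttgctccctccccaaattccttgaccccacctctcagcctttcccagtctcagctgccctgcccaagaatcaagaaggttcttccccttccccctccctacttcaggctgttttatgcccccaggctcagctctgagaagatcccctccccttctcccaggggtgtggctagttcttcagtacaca
Pvalb: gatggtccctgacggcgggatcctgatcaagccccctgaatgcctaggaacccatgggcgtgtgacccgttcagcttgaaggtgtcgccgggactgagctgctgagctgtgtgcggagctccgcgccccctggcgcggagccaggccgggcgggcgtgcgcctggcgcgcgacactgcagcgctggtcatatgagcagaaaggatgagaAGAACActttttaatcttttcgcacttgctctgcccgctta
The Slc12a3 window held a TATAAA that begins 32 bases before the start, and the Pvalb window held AGAACA, the reverse complement of TGTTCT, 41 bases before it. The Trpv5 window held none of the 4 motifs. Of all 33469 promoter windows of this length, 12.9% held TATAAA, 17.5% TGTTCT, 14.1% AGGTCA and 5.59% CACGTG on either strand. A match of 6 letters is a description of the sequence, not a binding site.

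FPKM is scaled to length, so levels can be set beside each other between genes, within the limits of the annotation. In WT, Slc12a3 was the most abundant at 40.1 ± 12.4 FPKM (SD, n = 3), followed by Wnk4 at 32.8 ± 3.20 and Calb1 at 27.1 ± 7.74 FPKM. The values of these 3 genes overlapped. Wnk1 (12.7 ± 3.42 FPKM) and Stk39 (11.5 ± 2.03 FPKM) came next and overlapped each other, as did Pvalb (7.77 ± 0.572 FPKM) and Klhl3 (6.52 ± 1.52 FPKM). Trpv5 at 2.84 ± 0.612 FPKM and Trpm6 at 1.21 ± 0.151 FPKM were the scarcest and did not overlap. Calb1 had the highest mean of the 9 genes in QDG, at 86.3 ± 11.4 FPKM, and in Model, at 88.2 ± 44.4 FPKM, but held the third place in WT.

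**Figure D2:**
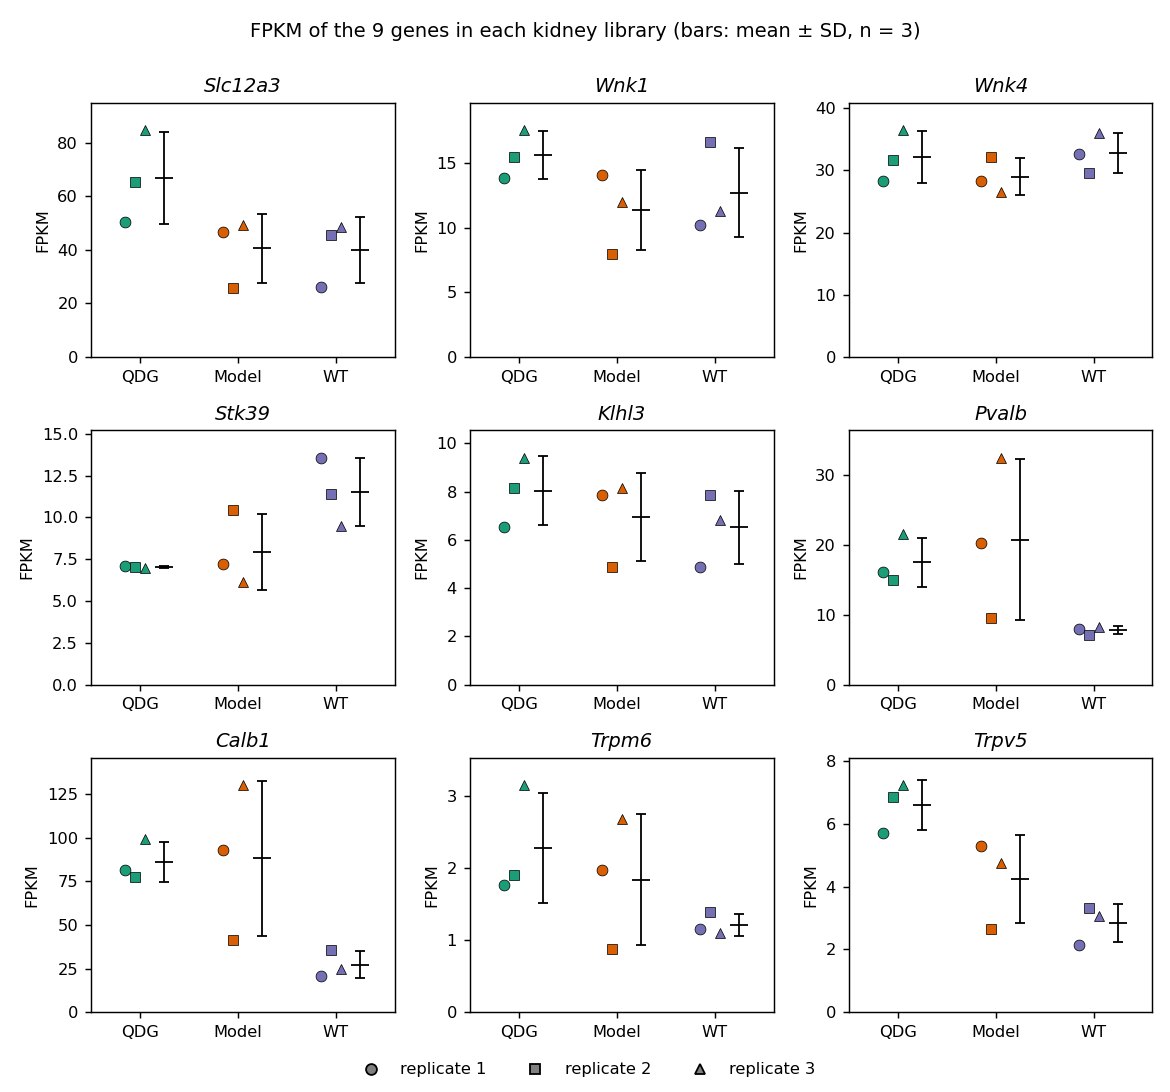
FPKM of each of the 9 genes (y axis, starting at 0) in the QDG, Model and WT libraries; each point is a library, its shape gives the replicate number, and the bars are mean ± SD of 3. All QDG and Model values of Calb1 and Pvalb lie above all WT values, and all QDG values of Slc12a3 and Trpv5 lie above those of both other groups.

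Across all features, 7.9% passed the test in Model against WT (963 of 12187), 0% in QDG against Model and 2.47% in QDG against WT (301 of 12187), by limma on log2(FPKM + 1) with all 9 libraries in 1 fit and an adjusted p under 0.05. Of the 9 genes, 1 passed in Model against WT, 0 in QDG against Model and 2 in QDG against WT, all of them higher in the hypertensive group. Features called higher were 6.01% and 1.63% of all in the comparisons of Model and of QDG with WT. A count of 1 or 2 among 9 genes is small, and the genes are described singly below. The median log2 change of the 9 genes was 0.07 in Model against WT, 0.20 in QDG against Model and 0.54 in QDG against WT, beside medians of 0.02, −0.02 and 0.00 over all features tested. The comparisons of Model and of QDG with WT share the WT libraries, and QDG against Model shares the Model libraries with the first of them. A test for any difference among the 3 groups (limma moderated F) called 443 features, or 3.64%, and Calb1 was the only one of the 9 genes among them (adjusted p = 0.0407), with Trpv5 next at an adjusted p of 0.0509. Without Model 2 this test called 4 of the 9 genes, beside 5.63% of all features, and without Model 3 it called 1, beside 2.24%. Without any other single library it called 0 of the 9, beside shares of all features between 0.722% (without QDG 2) and 7.32% (without WT 3).

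**Figure D3:**
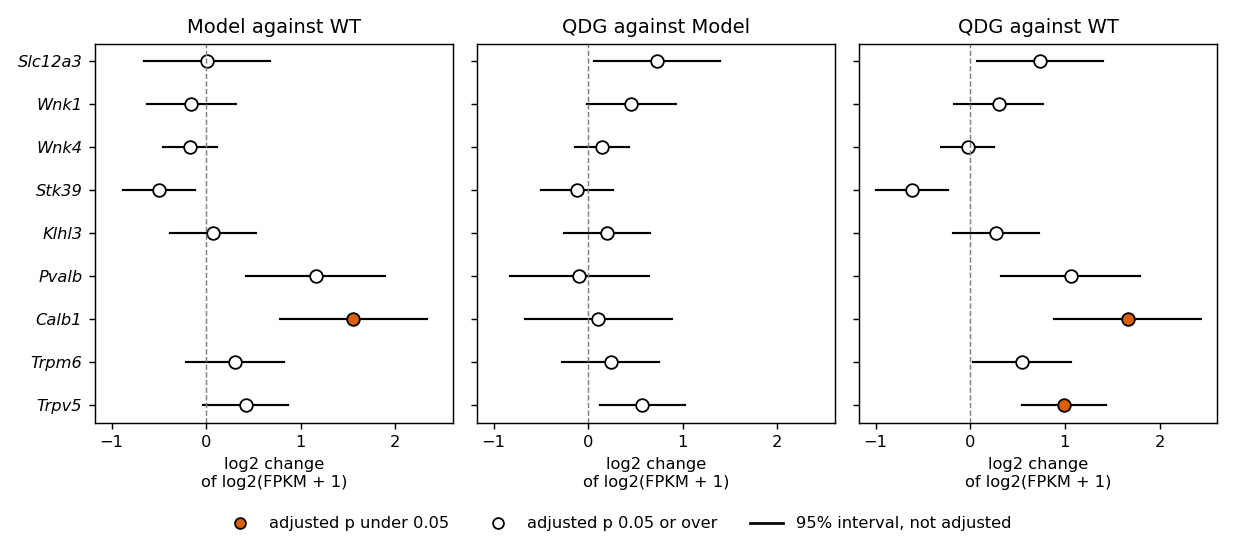
Log2 change of each gene on the log2(FPKM + 1) scale in Model against WT, QDG against Model and QDG against WT, with the 95% interval that is not adjusted for the number of features; filled points passed the adjusted threshold. Calb1 is filled in both comparisons with WT (1.56 and 1.66) and Trpv5 in QDG against WT (0.99).

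Calb1 (ENSMUSG00000028222), the calbindin gene, was higher in both hypertensive groups than in normal kidney. Its values were 81.8, 77.7 and 99.2 FPKM in QDG, 92.7, 41.7 and 130 FPKM in Model, and 20.6, 35.7 and 25.0 FPKM in WT. Every hypertensive library lay above every WT library, although Model 2 was close to WT 2. Calb1 rose 3.25-fold in mean FPKM in Model over WT, and by 1.56 on the log2(FPKM + 1) scale (SE 0.35, limma adjusted p = 0.0298). In QDG over WT it rose 3.18-fold in mean FPKM, and by 1.66 on that log2 scale (limma adjusted p = 0.0391). In QDG against Model the log2 difference was 0.11 with a 95% interval of −0.67 to 0.88 (limma adjusted p = 0.909), and the QDG libraries lay within the range of the Model libraries. Without Model 2 that difference was −0.35 (limma adjusted p = 0.520). The direction against WT held under all 18 alternatives in both comparisons, while the adjusted threshold was passed in 12 of 18 for Model (adjusted p of 0.00494 to 0.0872) and in 10 of 18 for QDG (adjusted p of 0.00586 to 0.133). With the replicate number as a block, Calb1 had an adjusted p of 0.0645 in QDG against WT. Without Model 2, Calb1 differed by a log2 change of 2.02 in Model against WT (limma adjusted p = 0.00494). The call in Model against WT was lost without WT 1, WT 2, Model 1, Model 3 or QDG 2 (adjusted p of 0.0823, 0.0530, 0.0856, 0.0872 and 0.0508, in that order). The call in QDG against WT was lost without any 1 of the WT libraries (adjusted p of 0.133, 0.0520 and 0.0556 for WT 1, 2 and 3) or of the QDG libraries (0.127, 0.117 and 0.126 for QDG 1, 2 and 3).

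Trpv5 (ENSMUSG00000036899), the apical calcium channel, was higher in QDG than in WT. It stood at 5.70, 6.87 and 7.23 FPKM in QDG, 5.29, 2.64 and 4.76 FPKM in Model, and 2.15, 3.32 and 3.06 FPKM in WT. The QDG values lay above all values of the other groups, whereas Model 2 lay within the WT range. Trpv5 rose 2.32-fold in mean FPKM in QDG over WT, a log2 change of 0.99 (SE 0.20, limma adjusted p = 0.0351). The log2 difference was 0.42 in Model against WT (95% interval −0.03 to 0.87, limma adjusted p = 0.204) and 0.57 in QDG against Model (95% interval 0.13 to 1.02, limma adjusted p = 0.310), and neither passed the threshold. Without Model 2 the difference between QDG and Model was 0.33 (limma adjusted p = 0.405). The call in QDG against WT held in 10 of 17 alternatives (adjusted p of 0.00817 to 0.132). It was lost without WT 1, WT 2 or any QDG library (adjusted p of 0.0528 to 0.132), and the adjusted p was 0.0666 with the replicate number as a block. Without Model 2, Trpv5 was called higher in Model than in WT, with a log2 change of 0.66 (limma adjusted p = 0.0340).

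Pvalb (ENSMUSG00000005716), the parvalbumin gene, had a mean FPKM 2.25 times that of WT in QDG and 2.67 times that of WT in Model, but missed the adjusted threshold. Its values were 16.0, 14.9 and 21.5 FPKM in QDG, 20.2, 9.51 and 32.5 FPKM in Model, and 7.991, 7.12 and 8.20 FPKM in WT. The WT libraries were tightly grouped and below every hypertensive library, while the Model libraries spread 3.41-fold. The log2 difference was 1.16 (SE 0.33) in Model against WT (limma adjusted p = 0.0579), 1.06 in QDG against WT (limma adjusted p = 0.111) and −0.10 in QDG against Model (limma adjusted p = 0.915). Without Model 2 it passed in Model against WT, with a log2 change of 1.61 (limma adjusted p = 0.00591), and in QDG against WT (limma adjusted p = 0.0171), where the libraries compared are the same and only the shared spread changes. In QDG against WT it also passed without Model 3 (limma adjusted p = 0.0479). In QDG against Model the difference without Model 2 was −0.54 (limma adjusted p = 0.361). With the replicate number as a block, Pvalb also passed in Model against WT (adjusted p = 0.0444). In each comparison with WT it passed in 3 of the 18 alternatives. Without Model 3, which had its highest value, the difference of Model against WT was 0.77 (limma adjusted p = 0.148). That of QDG against WT was 0.91 without QDG 3 (limma adjusted p = 0.271). Parvalbumin is the shortest of the 9 features, at 1041 bases, and after removal of each library's trend with feature length the log2 difference of Model against WT was 0.93 (limma adjusted p = 0.104).

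Trpm6 (ENSMUSG00000024727), the magnesium channel, was the scarcest of the 9 genes. It stood at 1.77, 1.91 and 3.15 FPKM in QDG, 1.97, 0.872 and 2.67 FPKM in Model, and 1.16, 1.38 and 1.10 FPKM in WT. All QDG values were above all WT values, while the Model values lay on both sides of them. The log2 difference of QDG against WT was 0.54 (95% interval 0.03 to 1.06, limma adjusted p = 0.214), that of Model against WT 0.31 (limma adjusted p = 0.412) and that of QDG against Model 0.24 (limma adjusted p = 0.665). Without Model 2 the difference of Model against WT was 0.58 (limma adjusted p = 0.0786) and that of QDG against Model −0.037 (limma adjusted p = 0.946). Without QDG 3 the difference of QDG against WT was 0.36 (limma adjusted p = 0.474) and that of QDG against Model 0.053 (limma adjusted p = 0.960). With values this low, the log2(FPKM + 1) scale understates a change, and the mean FPKM of QDG was 1.88 times that of WT.

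Slc12a3 (ENSMUSG00000031766), the cotransporter gene, had almost equal means in Model and WT and a higher mean in QDG. It stood at 50.3, 65.3 and 84.8 FPKM in QDG, 46.7, 25.7 and 49.4 FPKM in Model, and 26.0, 45.7 and 48.7 FPKM in WT. The Model and WT values interleaved, and all QDG values lay above both groups, although QDG 1 was close to Model 3. The log2 difference was 0.01 in Model against WT (95% interval −0.66 to 0.68, limma adjusted p = 0.986), 0.73 in QDG against Model (95% interval 0.06 to 1.40, limma adjusted p = 0.330) and 0.74 in QDG against WT (95% interval 0.07 to 1.41, limma adjusted p = 0.196). None of these passed the adjusted threshold under any of 18 alternatives. The mean of QDG was 1.65 times that of Model, and without Model 2 the log2 difference was 0.44 (limma adjusted p = 0.507). Without QDG 3 the difference of QDG against Model was 0.54 (limma adjusted p = 0.734) and that of QDG against WT 0.55 (limma adjusted p = 0.419). The difference between Model and WT was 0.30 without Model 2 (limma adjusted p = 0.506), its sign turned in 5 of the 18 alternatives, and its interval is too wide to show equal levels.

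Stk39 (ENSMUSG00000027030), which encodes the kinase SPAK between the WNK kinases and the cotransporter, had lower means in both hypertensive groups than in WT, but did not pass the test. It stood at 7.11, 7.06 and 6.999 FPKM in QDG, 7.20, 10.4 and 6.14 FPKM in Model, and 13.6, 11.4 and 9.51 FPKM in WT. The QDG libraries were almost identical and below all WT libraries, while Model 2 fell inside the WT range. The log2 difference was −0.62 (SE 0.17) in QDG against WT (limma adjusted p = 0.0818), −0.50 in Model against WT (limma adjusted p = 0.0953) and −0.12 in QDG against Model (limma adjusted p = 0.782, and 0.075 without Model 2), so none passed. It kept its sign in both comparisons with WT under all 18 alternatives, and passed the threshold in 3 of 18 for QDG and in 1 of 18 for Model. Without Model 2, Stk39 was called lower in Model, with a log2 change of −0.70 (limma adjusted p = 0.0231), and in QDG (limma adjusted p = 0.0299). The call in QDG was also made without WT 3 (limma adjusted p = 0.0479).

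Wnk4 (ENSMUSG00000035112), a WNK kinase of the distal nephron, had the narrowest intervals of the 9 genes. Its values were 28.3, 31.7 and 36.5 FPKM in QDG, 28.3, 32.2 and 26.5 FPKM in Model, and 32.7, 29.6 and 36.0 FPKM in WT. The groups overlapped fully, and the log2 difference was −0.17 in Model against WT (95% interval −0.46 to 0.11, limma adjusted p = 0.407) and 0.14 in QDG against Model (95% interval −0.14 to 0.43, limma adjusted p = 0.637). Without Model 2 these were −0.25 and 0.22. The interval for QDG against WT was −0.31 to 0.26 (limma adjusted p = 0.922).

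Wnk1 (ENSMUSG00000045962), the other WNK kinase of the set, had 13.8, 15.4 and 17.5 FPKM in QDG, 14.1, 7.99 and 11.95 FPKM in Model, and 10.2, 16.6 and 11.3 FPKM in WT. Model 2 had the lowest value, and the groups overlapped. The log2 difference was 0.45 in QDG against Model (95% interval −0.02 to 0.92, limma adjusted p = 0.370) and −0.16 in Model against WT (limma adjusted p = 0.664). Without Model 2 the difference was 0.24 in QDG against Model (limma adjusted p = 0.594) and 0.057 in Model against WT (limma adjusted p = 0.868). Kidney makes a short Wnk1 transcript without the kinase domain from an internal promoter, mainly in the distal convoluted tubule, and a value per gene does not separate it from the full-length transcript.

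Klhl3 (ENSMUSG00000014164), the ubiquitin ligase adaptor, stood at 6.55, 8.14 and 9.41 FPKM in QDG, 7.85, 4.87 and 8.15 FPKM in Model, and 4.88, 7.87 and 6.82 FPKM in WT. The groups overlapped. The log2 difference was 0.27 in QDG against WT (95% interval −0.18 to 0.73, limma adjusted p = 0.469), and it moved to 0.11 without WT 1, 0.16 without QDG 3 and 0.40 without WT 2. In Model against WT it was 0.074 (limma adjusted p = 0.845), and 0.28 without Model 2. In QDG against Model it was 0.20 (limma adjusted p = 0.681), and −0.0068 without Model 2.

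The number of these genes that passed differed with Model 2 and with the samples fitted. For Calb1, Trpv5, Pvalb and Stk39, Model 2 was the Model library nearest to WT, so its removal widens their difference between Model and WT by construction. The calls without it are therefore no further support. Without Model 2, 4 of the 9 genes were called in Model against WT (Calb1, Trpv5 and Pvalb higher, Stk39 lower), beside 8.87% of all features (6.38% higher and 2.49% lower). In QDG against WT, 4 of the 9 passed without Model 2 (Calb1, Trpv5 and Pvalb higher, Stk39 lower), beside 4.23% of all features (2.74% higher and 1.49% lower). A fit to only the 2 groups compared called 4 of the 9 in QDG against WT, with adjusted p-values of 0.00709 for Calb1, 0.0105 for Pvalb, 0.0127 for Trpv5 and 0.0394 for Stk39 (limma), beside 3.99% of all features (2.57% higher and 1.42% lower). The same kind of fit for Model against WT called 0 of the 9, with Calb1 at an adjusted p of 0.0756, beside 1.18% of all features. In QDG against Model, 0 of the 9 genes passed under any alternative in which they were tested, which was all 18 for 7 genes and 17 for Trpm6 and Trpv5, whose means lie under 5 FPKM. At an unadjusted p under 0.05, Slc12a3 and Trpv5 were higher in QDG than in Model (2 of 9), beside 4.27% of all features higher and 9.64% lower at that level (1695 features, or 13.9%, in all). That count rests on Model 2 and also on QDG 3. Without Model 2 neither gene was under that level (limma unadjusted p = 0.148 for Slc12a3 and 0.0611 for Trpv5). Pvalb was under it there, with a difference of −0.54 (limma unadjusted p = 0.0261). Without QDG 3 neither Slc12a3 nor Trpv5 was under it (limma unadjusted p = 0.130 and 0.0559). Without QDG 2, Trpv5 was under it but Slc12a3 was not (limma unadjusted p = 0.0456 and 0.0664). Voom, a count-based weighting of recovered reads, also called 0 features in this comparison under both scalings.

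**Figure D4:**
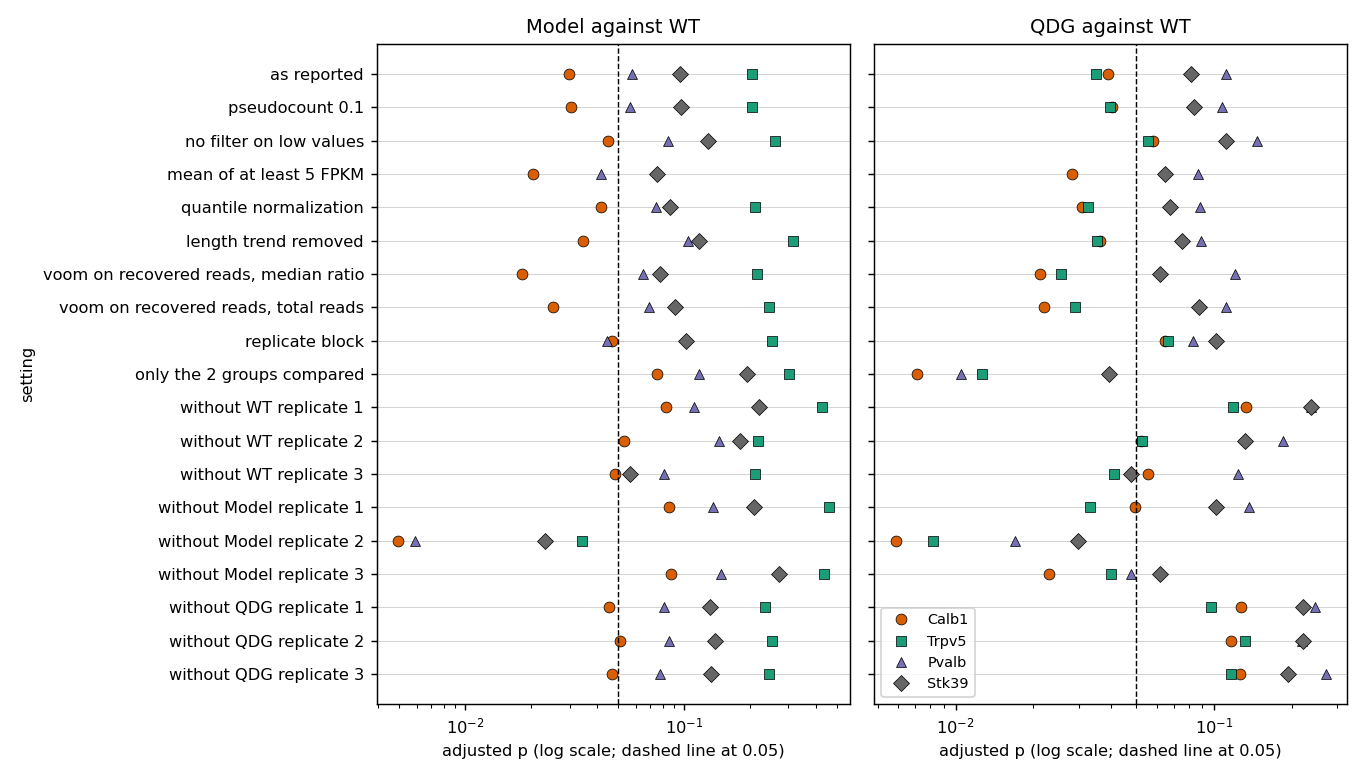
Adjusted p-values (log axis) of Calb1, Trpv5, Pvalb and Stk39 in Model against WT and QDG against WT, as reported and under each alternative setting, 1 row per setting. Points left of the dashed line passed; in Model against WT without Model replicate 2 all 4 genes lie left of it, while without WT replicate 1 none does in either comparison.

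The groups did not overlap for 2 of the 9 genes in Model against WT, both higher, beside 28.2% of all features (17.3% higher), for 2 of 9 in QDG against Model, both higher, beside 26.7% (10.4% higher), and for 6 of 9 in QDG against WT, beside 27.7%. In QDG against WT the 5 genes with all values higher were Slc12a3, Pvalb, Calb1, Trpm6 and Trpv5, and Stk39 had all values lower. Features with all QDG values above all WT values were 15.2% of those tested, and 12.5% had all values lower.

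Ratios between genes of the same library do not depend on the total by which that library was scaled, but they do change when a library's trend with feature length is removed. For ratios, the setting with the length trend removed starts from log2(FPKM + 1), so it also adds 1 to both values. Calb1 had 1.63, 1.19 and 1.17 times the FPKM of Slc12a3 in QDG, 1.99, 1.62 and 2.64 times in Model, and 0.793, 0.780 and 0.514 times in WT. Every library with hypertension thus held more Calb1 than Slc12a3 per length, and every WT library less. Which gene is ahead depends on the feature lengths used, 4846 bases for Calb1 and 11119 for Slc12a3. The shift of the ratio between groups does not depend on them. Model 2, in which both genes were low, had a ratio above all WT libraries. The mean log2 ratio was higher by 1.58 in Model than in WT and by 0.94 in QDG than in WT, without overlap in either case (two-sided exact permutation test, p = 0.1 each, the smallest that 3 against 3 allows, and 0.25 after adjustment over 15 tests). In QDG against Model the difference was −0.64 (exact permutation p = 0.2, adjusted 0.429).

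Trpv5 over Slc12a3 was 0.113, 0.105 and 0.0853 in QDG, 0.113, 0.103 and 0.0964 in Model, and 0.0829, 0.0726 and 0.0629 in WT. All hypertensive libraries lay above all WT libraries, with a difference in mean log2 ratio of 0.48 in QDG and 0.52 in Model over WT (exact permutation p = 0.1 each, adjusted 0.25). With 1 added to both values these differences were 0.25 in QDG and 0.41 in Model over WT (exact permutation p = 0.2 each). With the length trend also removed they were 0.21 and 0.20 (exact permutation p = 0.3 and 0.4). The separation was lost under both settings, which share the added 1. Between QDG and Model the difference was −0.05 (exact permutation p = 0.8, adjusted 0.857).

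Pvalb over Slc12a3 was 0.319, 0.229 and 0.254 in QDG, 0.433, 0.370 and 0.658 in Model, and 0.308, 0.156 and 0.168 in WT. Here the Model libraries stood above those of both other groups, with a log2 difference of 1.24 in Model over WT and −0.84 in QDG against Model (exact permutation p = 0.1 each, adjusted 0.25). With 1 added to both values these were 1.15 and −0.82, and with the length trend also removed 0.78 and −0.50, still without overlap. QDG and WT overlapped (difference 0.40, exact permutation p = 0.3, adjusted 0.45). Trpm6 over Slc12a3 overlapped in all 3 comparisons (exact permutation p of 0.3 to 0.8). Its overlap in QDG against Model was lost in 2 settings (exact permutation p = 0.1 each). The difference was −0.49 with 1 added to both values and −0.45 with the length trend also removed. Wnk4 over Wnk1 was 2.05, 2.05 and 2.08 in QDG, 2.01, 4.03 and 2.22 in Model, and 3.20, 1.79 and 3.19 in WT, and the groups overlapped (exact permutation p of 0.4 to 1). The QDG libraries were the most alike, with an SD of 0.0117 on the log2 scale against 0.543 in Model and 0.485 in WT.

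**Figure D5:**
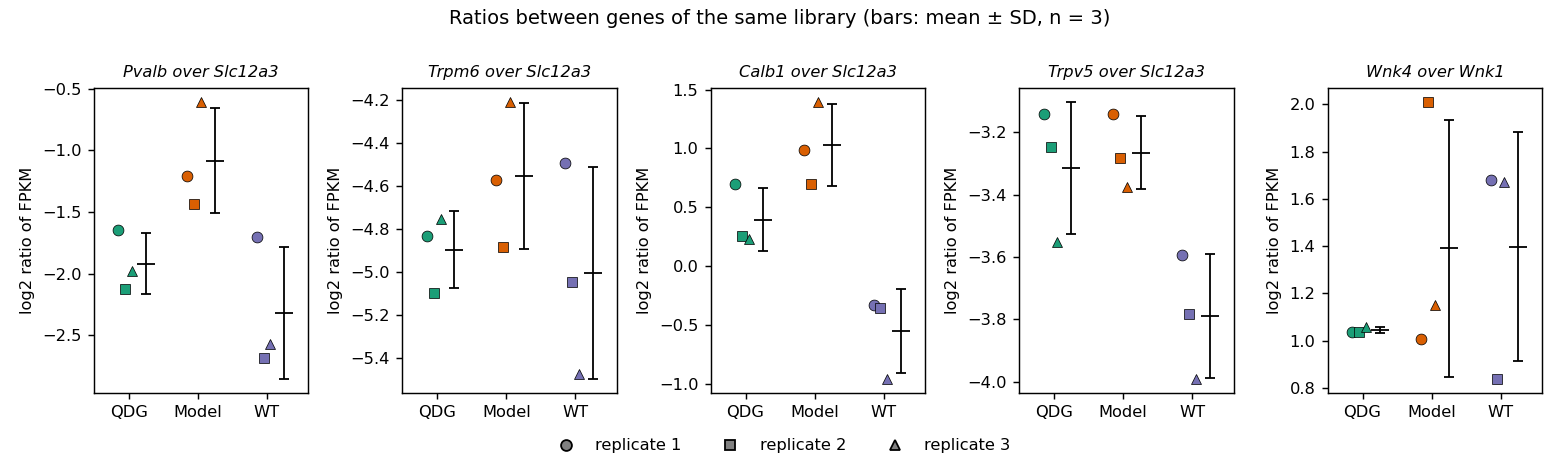
Log2 ratio of the FPKM of gene pairs within each library in QDG, Model and WT; points are libraries with the replicate number given by shape, and bars are mean ± SD of 3. For Calb1 over Slc12a3 all QDG and Model points lie above 0 and all WT points below, and for Pvalb over Slc12a3 the Model points are the highest.

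The likeness of profiles to that of Slc12a3 was measured as the root-mean-square difference of log2(FPKM + 1) over the 9 libraries, each gene centred on its own mean, and ranked over the other 12186 features tested. Trpv5 ranked 9 with a difference of 0.24, Klhl3 20 with 0.28, Wnk1 33 with 0.29 and Trpm6 58 with 0.31, where the median feature had 0.54. Wnk4 ranked 4273, Pvalb 8209, Calb1 10981 and Stk39 11742. The measure depends on the amplitude of a profile as well as on its shape. The 2 features most like Slc12a3 were ENSMUSG00000005640 with a difference of 0.16 and ENSMUSG00000032373 with 0.18, which are given by identifier because no name is paired with them in the sources used here. ENSMUSG00000005640 stood at 5.41, 6.19 and 9.10 FPKM in QDG, 4.58, 2.27 and 4.33 FPKM in Model, and 3.15, 4.04 and 4.19 FPKM in WT. These ranks describe the 9 libraries, which share the group differences and the low values of Model 2 and WT 1, and carry no test.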

How the data were processed

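The values the authors deposited carry no unit and were taken as FPKM. They move in steps of whole reads divided by feature length and a scaling total for each library, which is not a count of the listed reads. Read numbers could be recovered in this way for 17861 of 17862 features (99.99%), within 0.0001 read or a relative 2e-07. Per the labels' protocols, ribosomal RNA was depleted and NEB Next Ultra libraries were built. Limma is named in the submitters' processing notes. The sources used here name no aligner, counter, genome build, annotation or strand setting, so overlapping or antisense genes could not be told apart. No deposited value was 0, so any feature at 0 in a library was absent from the values and could not be analysed here.

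From the deposited FPKM, log2(FPKM + 1) was fitted for the 12187 features that averaged at least 1 FPKM in 1 limma 3.58.1 model (R 4.3.3) with an intensity trend over all 9 samples, with Benjamini-Hochberg adjustment over all features in each comparison. Log2 changes are the group named first minus the other. Ratios were tested by exact permutation (scipy 1.17.1). The procedures were tested on simulated data. Alternatives were other pseudocounts (0.1) and limits (none, or a mean of 5 FPKM), quantile normalization, removal of the length trend, voom on recovered reads, a replicate block, 2-group fits and leaving out each library. The 9 genes, the lists and the alternatives were chosen with earlier results of these data known. All 9 genes are described, and the 2 other features named are those most like Slc12a3. Replicate numbers are in the titles, and nothing says that they pair samples. Of a list of 26 pathway genes and one of 26 cell type markers, 0 identifiers could be matched, so they were not analysed here.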

Additional observations from a re-analysis of the deposited data

How the results depend on the processing

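Model against WT called 963 features and 1 of the 9 genes. It called 533 features and 2 genes with a replicate block, 144 and 0 with only the 2 groups fitted, and 883 and 2 with a mean of at least 5 FPKM, where 7 of the 9 genes were tested. Leaving out 1 library gave 195 to 1529 features and 0 to 4 genes. QDG against Model called 0 features and 0 genes, 1 feature with only the 2 groups fitted, and 0 to 3 features with a library left out. QDG against WT called 301 features and 2 genes. It called 154 features and 0 genes with a replicate block, 486 and 4 with only the 2 groups fitted, 515 features when quantile normalized, 530 with the length trend removed, 220 features and 0 genes without a filter, and 295 features and 1 gene with a mean of at least 5 FPKM, a limit that Trpv5 does not reach. Leaving out 1 library gave 39 to 775 features and 0 to 4 genes. The test for any difference among groups called 443 features and 1 gene, 139 and 0 with a replicate block, 320 and 0 without a filter, 2 genes with either voom scaling (650 features by median ratio and 388 by total reads), and 88 to 892 features and 0 to 4 genes with a library left out. The causes were not tested.

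Same-numbered libraries correlated at −0.33 to 0.14 in their deviations from the group means. Some libraries correlated best with their own number and others did not. With 3 libraries a group, these correlations cannot decide whether the replicate numbers pair the samples. The replicate block moved the calls as given above.

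Signs turned only for differences that had not passed the threshold. For Slc12a3 in Model against WT the log2 difference was −0.20 after quantile normalization, −0.025 with voom on total reads, and −0.27 to 0.30 with a library left out. For Pvalb in QDG against Model it was 0.010 when quantile normalized, 0.12 with the length trend removed, and −0.54 to 0.29 with a library left out. For Wnk1 in Model against WT it was 0.082 after removal of the length trend and −0.32 to 0.057 with a library left out. With a library left out it was −0.094 to 0.28 for Klhl3 in Model against WT, −0.12 to 0.056 for Wnk4 in QDG against WT, and, in QDG against Model, −0.27 to 0.075 for Stk39, −0.0068 to 0.32 for Klhl3, −0.35 to 0.46 for Calb1 and −0.037 to 0.45 for Trpm6. The difference in log2 ratio of Trpm6 over Slc12a3 in QDG against WT was −0.20 with 1 added to both values. It was −0.22 with the length trend also removed, and −0.13 to 0.37 with a library left out. That of Trpv5 over Slc12a3 in QDG against Model was −0.16 with 1 added to both values and 0.0094 with the length trend also removed. With a library left out it was −0.13 to 0.070, and that of Wnk4 over Wnk1 in Model against WT was −0.32 to 0.18. The other 12 ratio differences kept their sign in all 9 alternatives each. With 3 libraries a group, no exact test of a ratio can pass 0.05.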
